A study of Mus musculus with 3143 samples.

Results

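The endothelin, nitric oxide and shear-response genes described here are 10 genes, taken by symbol from the 46517 gene names of a single-cell read-count table of the mouse kidney glomerular fraction. They are the ligand gene Edn1, its processing enzyme Ece1, the receptors Ednra and Ednrb, the nitric oxide synthase Nos3, the enzymes Ddah1 and Ddah2, the guanylate cyclase subunit Gucy1a3, and the transcription factors Klf2 and Klf4. All 10 symbols were found, and all 10 had reads. The cells came from kidneys of adult C57BL/6 mice, and their treatment label is IgAN or Control. IgAN stands for IgA nephropathy, in which deposits of immunoglobulin A form between the glomerular capillaries, in the mesangium. Cells of both groups were freed from the glomerular fraction with enzymes, stained with a CellTracker dye, sorted as dye-positive cells into 384-well plates and read by Smart-seq2, a method that makes full-length cDNA from polyadenylated RNA of 1 cell per well. IgAN gave 1798 cells on 6 plates and Control 1345 cells on 4 plates. How the disease was induced, the sex of the mice and the number of mice in a group are not given in the labels.

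Endothelin is made as a precursor that endothelin converting enzyme, the product of Ece1, cuts to the active peptide. The peptide narrows vessels through the endothelin A receptor (Ednra) of smooth muscle and mesangial cells, while the endothelin B receptor (Ednrb) of endothelium binds and clears it and can set off nitric oxide release. Endothelial nitric oxide synthase (Nos3) makes nitric oxide from arginine, the dimethylarginine hydrolases Ddah1 and Ddah2 remove methylated arginines that inhibit it, and soluble guanylate cyclase, with Gucy1a3 as a subunit, answers nitric oxide in the contractile cell with cyclic GMP. Klf2 and Klf4 are transcription factors that blood flow induces in endothelium, where they are known to raise Nos3 and lower Edn1. Both are also known to respond quickly to stress, as the immediate early genes do.

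Each plate held cells of 1 group only and no animal is named, so each group is 1 sample and no test between groups could be made. Plate effects and group effects cannot be told apart. In place of an error the range over plates is given. Levels are CPM, that is reads scaled to the same library total, of reads summed over the cells of a class or plate. Intervals are exact at 95% and cover only the counting error of reads or cells taken as independent. The reads carry no molecular identifiers, so copies of 1 molecule count as separate reads. The intervals of levels are therefore too narrow, and they leave out the spread between cells and plates. The median depth was 234207 reads per cell, and plate medians ran from 177508 to 396719. Cells fell into 19 clusters, built without the 10 genes among the variable genes, and clusters were named from markers as classes called "like". Endothelial-like cells numbered 1046 in IgAN and 623 in Control, and carried all 10 endothelial markers. They fell into 5 clusters, of which cluster 2, with 428 of the IgAN and 23 of the Control cells, was led by genes of platelets, Tubb1, Ppbp, Gp5, Itga2b and Gp9 among them. No platelet list was among the markers, and the cluster kept the endothelial name: its 10 endothelial markers summed to 15490 CPM, against 11560 to 17530 CPM in the other 4 clusters. The 5 platelet genes named here summed to 149 CPM in cluster 2, against 7.97 to 56.5 CPM. They were picked from the leading genes of cluster 2, so that they were highest there was fixed by the choice. Because platelet genes led cluster 2, endothelial differences of the measured members are also given without it. Those of other genes are given for the whole class only. Mesangial-like cells numbered 104 and 47, and podocyte-like cells 38 and 146. Plate 322, of IgAN, was the deepest and stood apart in its endothelial-like cells, as described with Klf2 and Klf4, and the log2 differences of the members it bears on most are given with and without it.

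The levels of some of the 10 genes set endothelial and contractile cells of the glomerular fraction apart. In endothelial-like cells Klf2 stood at 1339 CPM, Ednrb at 679, Ece1 at 674, Ddah2 at 633, Klf4 at 266, Nos3 at 221 and Edn1 at 128 CPM. Gucy1a3 and Ednra were at 1.46 and 0.651 CPM there, and Ddah1 at 16.6 CPM. Mesangial-like cells had Gucy1a3 at 742 CPM and Ednra at 210 CPM. The smooth muscle or renin cell-like class had Ednra at 825 CPM and Gucy1a3 at 585 CPM. Other members were shared with endothelial-like cells. Klf2, Ddah2 and Edn1 stood at 450, 123 and 94.5 CPM in mesangial-like cells. Klf2, Ednrb and Ddah2 stood at 900, 366 and 197 CPM in the smooth muscle or renin cell-like class. Podocyte-like cells of both groups together held little of any of the 10 genes: the highest level was that of Klf2, at 68.1 CPM. In the 38 IgAN podocyte-like cells alone Ddah1 was at 147 CPM. Per kilobase of exon, the scale on which genes can be compared, the order in endothelial-like cells was Klf2 at 725, Ddah2 at 397, Ednrb at 159, Ece1 at 127, Klf4 at 87.2, Edn1 at 59.8 and Nos3 at 53.5 CPM per kilobase.

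**Figure D1:**
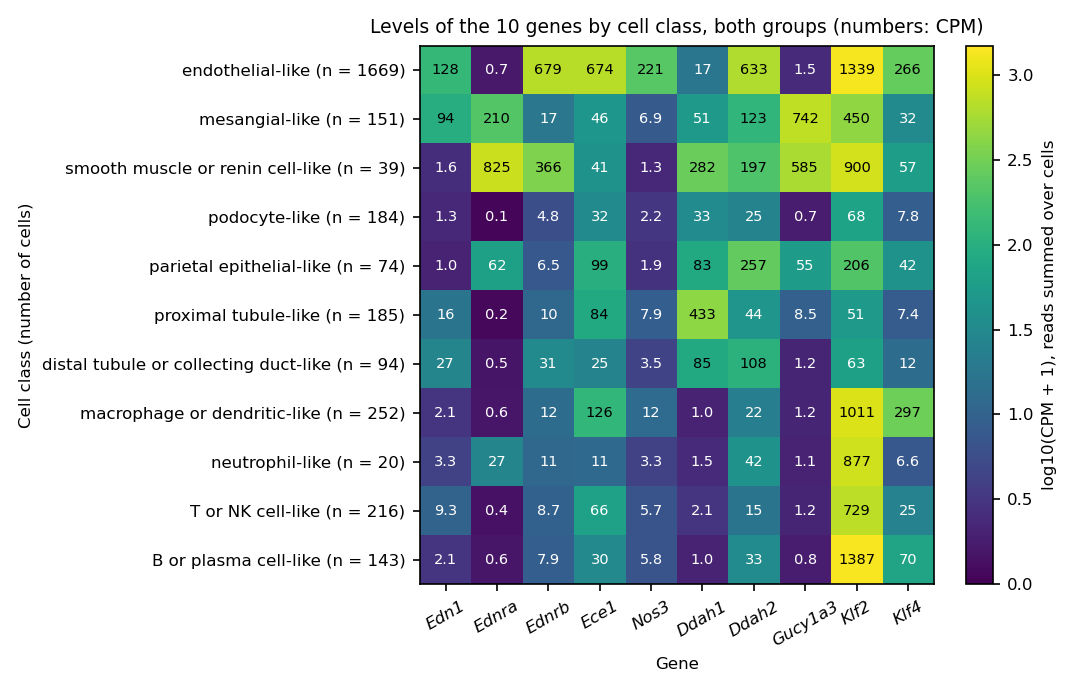
Levels of the 10 genes (columns) in 11 cell classes (rows, with the number of cells), as CPM of reads summed over both groups; color is log10(CPM + 1) and the printed number is CPM. Nos3, Ednrb, Ece1 and Ddah2 are highest in endothelial-like cells, Ednra in the smooth muscle or renin cell-like class, Gucy1a3 in mesangial-like cells, and Ddah1 in proximal tubule-like cells.

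Edn1, which encodes the ligand (chromosome 13, 42301476 to 42307990, plus strand, GRCm38), was at 128 CPM (127 to 129) in endothelial-like cells and at 94.5 CPM (91.4 to 97.7) in mesangial-like cells. The plates of these classes overlapped, from 66.4 to 231 CPM in 10 endothelial plates and from 34.4 to 139 CPM in 7 mesangial plates. The next class, distal tubule or collecting duct-like cells, was at 27.0 CPM, and the smooth muscle or renin cell-like class was at 1.58 CPM. The summed endothelial markers of mesangial-like cells stood at 31.3% of the endothelial-like level, and 148 of 151 cells carried at least 3 markers of another main class at 50 CPM or more. That sum came mainly from Eng and Ehd3, at 82.5% and 43.7% of the endothelial-like level, and Plvap was higher in mesangial-like cells, at 297%. Of the other markers, Emcn, Flt1 and Egfl7 were at 11.8%, 8.83% and 6.01%. Pecam1, Cdh5, Kdr and Tie1 were the lowest, at 2.30%, 1.73%, 2.07% and 1.36%. The part of endothelial RNA in the Edn1 level of these cells was not tested. Edn1 stood at 73.9% of its endothelial-like level in these cells, against 2.52% for Ednrb, 3.14% for Nos3 and 6.84% for Ece1.

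Edn1 was concentrated in few cells. It reached 100 CPM in 243 of 1669 endothelial-like cells (14.6%), and 167 cells held 86.8% of its reads there. By contrast Klf2 reached 100 CPM in 88.7% of these cells, Ddah2 in 73.2%, Ece1 in 70.2%, Ednrb in 57.9%, Klf4 in 50.1% and Nos3 in 33.2%. In mesangial-like cells Edn1 reached 100 CPM in 33 of 151 cells (21.9%). Shares of cells with a single read are less telling: podocyte-like cells had an Edn1 read in 21.7% and a Nos3 read in 41.3% of cells, at only 1.26 and 2.20 CPM. Their median depth was 239927 reads in IgAN and 294133 in Control, and that of endothelial-like cells 233628 and 262871.

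The 150 bases before the RefSeq start of Edn1 (GRCm38.p6, chr13:42301326-42301475, plus strand) are shown because they hold letters named for shear and for Krüppel-like factors, and Klf2 and Klf4 are measured in the same cells. Capitals mark, from left to right, GAGACC on the minus strand, the shear stress response element, and CACCC on the minus strand, the Krüppel-like factor box.
Edn1: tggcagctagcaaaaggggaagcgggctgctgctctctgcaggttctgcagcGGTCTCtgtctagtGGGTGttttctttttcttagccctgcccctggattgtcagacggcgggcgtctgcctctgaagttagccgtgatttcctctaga
The shear stress response element lay 98 to 93 bases before the start and the Krüppel-like factor box 84 to 80 bases before it, with a further one at 197 to 193 bases. Of 27025 genes in the RefSeq table, in windows of 250 bases searched on both strands, 15.5% held GAGACC and 54.5% held CACCC in at least 1 window. Among the 9 of the 10 genes with an entry, GAGACC was found for Edn1 alone, while CACCC was also found for Ednrb, Ece1, Ddah2, Gucy1a3 (listed as Gucy1a1) and Klf2. A match describes letters, not a bound site.

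In endothelial-like cells, Edn1 in the 6 IgAN plates ran from 66.4 CPM in plate 322 through a median of 156 CPM to 231 CPM in plate 315. The 4 Control plates were at 97.1, 97.5, 107 and 118 CPM. Plates 315, 316, 318 and 325 lay above every Control plate, plate 313 lay among them and plate 322 below them, so the groups overlapped. Summed over plates, Edn1 was at 142 CPM (140 to 143) in IgAN and 106 CPM (105 to 108) in Control, a log2 difference of 0.41 with 1 CPM added, or 0.69 without plate 322. A read was found in 49.1% of IgAN cells (46.1 to 52.2) and 35.3% of Control cells (31.6 to 39.2), or in 27.5% and 18.8% after every cell was thinned to 50000 reads. The intervals of these shares treat cells as independent and leave out the spread between plates.

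**Figure D2:**
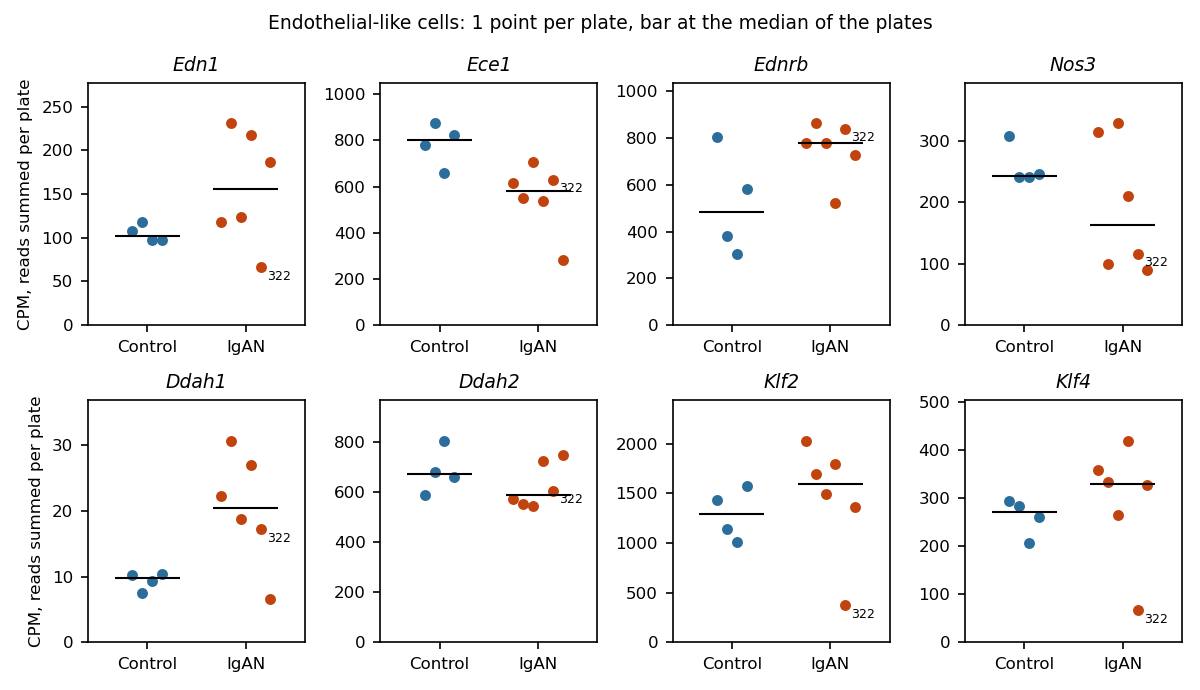
CPM of 8 genes in endothelial-like cells, 1 point per plate (4 Control, 6 IgAN; each panel has its own linear axis from 0), with a bar at the median of the plates and plate 322 labelled. The groups overlap in every panel, and plate 322 is the lowest point for Edn1, Klf2 and Klf4, at 66.4, 373 and 66.6 CPM.

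Edn1 was highest in a cluster rich in large-vessel markers within the endothelial-like cells. Of the 5 clusters that make up the class, cluster 4 (66 IgAN and 101 Control cells, led by Fbln5, an elastic fiber gene) had a summed level of arterial or large-vessel markers of 5281 CPM, against 1079 to 1283 CPM in the other 4. Its glomerular capillary markers summed to 373 CPM, against 3228 to 4182 CPM. Its peritubular or venous markers were also the highest, at 1198 CPM against 63.0 to 317 CPM, so the lists do not mark it as arterial alone. Edn1 was at 498 CPM in cluster 4 and at 42.6 to 124 CPM in the others, and Nos3 at 534 CPM against 93.1 to 320 CPM. Ednrb showed the reverse, at 227 CPM in cluster 4 and 634 to 815 CPM elsewhere, as did Ddah2, at 336 CPM against 453 to 729 CPM. These are descriptions of clusters formed from the same cells.

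The pattern of cluster 4 held plate by plate. At least 10 of its cells were found in 7 plates, 3 of IgAN and 4 of Control, and in each the cluster was set against the other endothelial-like cells of that plate. For Edn1 the levels in cluster 4 were 850, 545 and 728 CPM in IgAN plates 313, 316 and 318, against 65.2, 72.9 and 172 CPM in the other cells. In Control plates 314, 317, 321 and 326 Edn1 was at 497, 417, 667 and 409 CPM, against 41.6, 57.6, 29.8 and 40.8 CPM. Edn1 was higher in cluster 4 in 7 of 7 plates, by a median of 3.29 on the log2 scale (2.08 to 4.44).

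Nos3 was higher there in 7 of 7 plates too, by a median of 1.29 (0.73 to 2.55), and Klf2 by a median of 0.28 (0.05 to 0.46). Klf4 was higher in 5 of 7 plates. Ednrb was lower in 7 of 7 plates, with a median of -1.41 (-2.78 to -0.87), Ddah2 in 7 of 7, with -0.89 (-1.86 to -0.81), and Ece1 in 7 of 7, with -0.11 (-1.17 to -0.04). The genes of the endothelin ligand and its clearing receptor thus stood on opposite sides of this division in each of the 7 plates, and Nos3 stood on the side of the ligand.

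**Figure D3:**
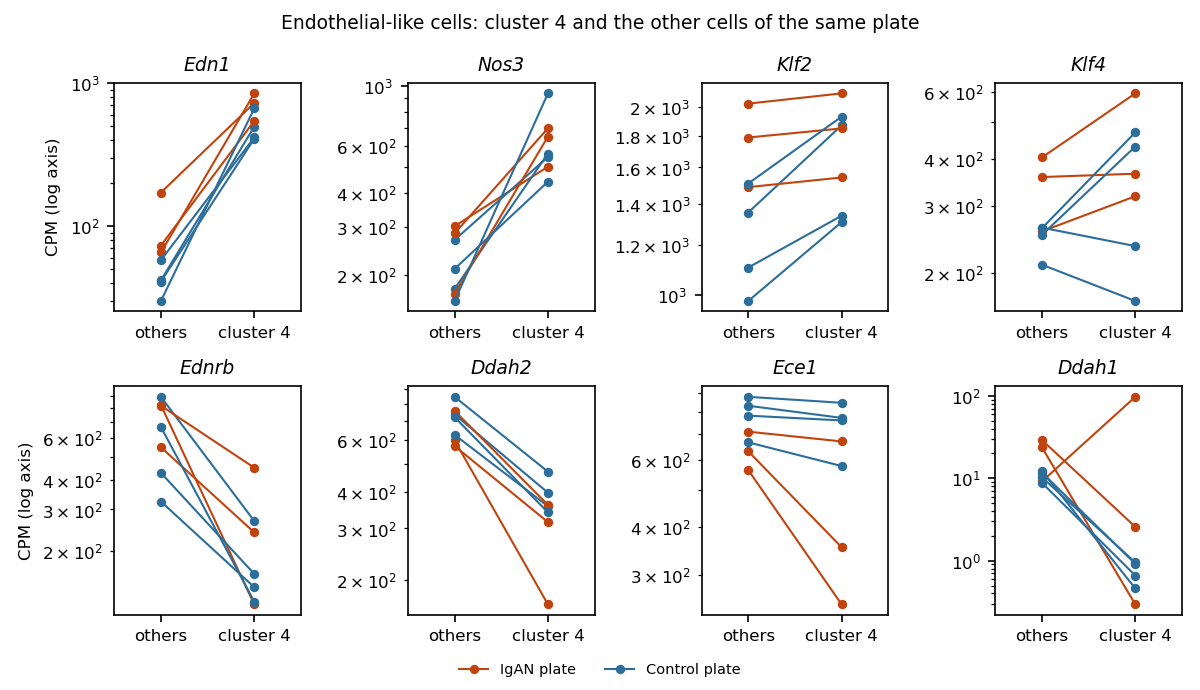
Levels in the other endothelial-like cells (left) and in cluster 4 (right) of the same plate, joined by a line for each of 7 plates (log axis in CPM, 1 panel per gene, own range). Edn1 and Nos3 lines go up in 7 of 7 plates and Ednrb and Ddah2 lines go down in 7 of 7.

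Cluster 4 made up 1.63% to 11.7% of endothelial-like cells in IgAN plates and 12.5% to 17.8% in Control plates, and held 22.7% of the Edn1 reads of IgAN but 64.3% of those of Control. Outside cluster 4, a split chosen after the data were seen, Edn1 in IgAN plates ran from 62.2 CPM in plate 322 through a median of 122 CPM to 229 CPM in plate 315. The 4 Control plates were at 29.8, 40.8, 41.6 and 57.6 CPM. All 6 IgAN plates lay above all 4 Control plates. The summed levels were 116 CPM in IgAN and 44.8 CPM in Control, a log2 difference of 1.35, or 1.61 without plate 322.

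Edn1 thereby met a size rule used throughout: the log2 difference is 1 or more in size, and the groups' plates do not overlap, counting plates with at least 10 cells of the class. Without cluster 4 the rule marked 0.845% of 9700 measured genes as higher in IgAN and 0.588% as lower, and of the 8 members measured there 1 was higher and 0 lower. Most of the remaining IgAN cells were in clusters 0 and 2, the latter led by platelet genes, and most of the Control cells in cluster 1. With clusters 2 and 4 both left out, Edn1 was at 109 CPM in IgAN and 43.6 CPM in Control, a log2 difference of 1.30, but it did not meet the rule. Plate 322, at 30.1 CPM in its 24 remaining cells, then lay among the Control plates, at 29.6 to 58.9 CPM, and the other 5 IgAN plates lay above them, at 68.1 to 375 CPM. In those cells the rule marked 0.499% of 9610 genes as higher, 0.687% as lower and none of the 8 measured members. Within cluster 4 itself, Edn1 was at 572 CPM in IgAN and 454 CPM in Control, with plates of 545 to 850 CPM and 409 to 667 CPM that overlapped. For Nos3, cluster 4 held 14.6% of the IgAN reads and 31.7% of the Control reads.

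Ece1, the converting enzyme gene (chromosome 4, 137862237 to 137965229, plus strand), was at 674 CPM in endothelial-like cells, where its lowest plate, at 283 CPM, lay above the highest plate of the next class, macrophage or dendritic-like cells, at 242 CPM. That class stood at 126 CPM, parietal epithelial-like cells at 98.6 CPM and proximal tubule-like cells at 84.2 CPM. In endothelial-like cells the IgAN plates ran from 283 CPM in plate 325 through a median of 581 to 708 CPM in plate 316. The Control plates were at 658, 781, 823 and 873 CPM. Plate 316 alone among IgAN plates lay above the lowest Control plate, and the summed levels of 588 CPM (585 to 591) and 809 CPM (805 to 813) gave a log2 difference of -0.46.

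Ednra, the endothelin A receptor gene (chromosome 8, 77663031 to 77724464, minus strand), had its highest levels in contractile cells. It stood at 825 CPM in the 39 cells of the smooth muscle or renin cell-like class and at 210 CPM in mesangial-like cells, where 43 of 151 cells (28.5%) reached 100 CPM. In endothelial-like cells 1 of 1669 cells did. The mesangial plates with at least 10 cells were at 107, 235, 282 and 304 CPM in IgAN and 228, 323 and 366 CPM in Control. Plate 313 lay below the Control range and the other 3 IgAN plates lay within it. The summed levels of 163 and 304 CPM gave a log2 difference of -0.89, or -0.68 without plate 322. Plates of fewer cells, at 0.00 CPM in IgAN plate 322 and 101 CPM in plate 315, entered only those sums.

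Ednrb, the endothelin B receptor gene (chromosome 14, 103814625 to 103844402, minus strand), was highest in endothelial-like cells, at 679 CPM (676 to 681), and next in the smooth muscle or renin cell-like class, at 366 CPM. Of the latter, 26 of 39 cells had reads of both receptors, against 41 of 151 mesangial-like cells. Mesangial-like cells held Ednrb at 17.1 CPM, and 3 of 151 reached 100 CPM. In endothelial-like cells the IgAN plates ran from 522 CPM in plate 318 through a median of 779 to 863 CPM in plate 315. The Control plates were at 305, 383, 584 and 803 CPM. Apart from plate 318, the IgAN plates lay above 3 of the Control plates, and Control plate 314 lay among them. The log2 difference of the summed levels, 762 CPM (759 to 766) and 547 CPM (544 to 550), was 0.48, and the share of cells with a read was 94.6% in IgAN and 83.3% in Control.

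Nos3 (chromosome 5, 24364810 to 24384474, plus strand) was at 221 CPM in endothelial-like cells, and its lowest plate there, at 90.7 CPM, lay above every plate of macrophage or dendritic-like cells, the next class, at 39.9 CPM or less. In IgAN it spread widely, from 90.7 CPM in plate 325 through a median of 163 to 329 CPM in plate 316. In Control it was at 242, 242, 246 and 309 CPM. Plates 313 and 316 lay above all Control plates and plates 315, 318, 322 and 325 below them. The summed levels of 196 CPM (195 to 198) and 260 CPM (258 to 263) gave a log2 difference of -0.41, or -0.19 without plate 322. Without cluster 2, which is led by platelet genes, the difference was 0.03. Leaving cluster 2 out also changed the weight of the plates. It held 67, 83, 173 and 86 cells in plates 315, 318, 322 and 325, but 13 and 6 in plates 313 and 316. Plates 313 and 316 then gave 218 and 200 of the 618 IgAN cells. The parts of plate and cluster in this change were not told apart. In cluster 2 Nos3 was at 93.1 CPM, the lowest of the 5 clusters, and the part of platelet RNA in this was not tested.

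The dimethylarginine hydrolase genes were split between cell types. Ddah2 (chromosome 17, 35059035 to 35062095, plus strand) was at 633 CPM in endothelial-like cells, in plates of 546 to 806 CPM, above all plates of parietal epithelial-like cells, at 113 to 326 CPM. Ddah1 (chromosome 3, 145758675 to 145894277, plus strand) was led by proximal tubule-like cells, at 433 CPM (427 to 440), followed by the smooth muscle or renin cell-like class at 282 CPM. In endothelial-like cells Ddah1 reached 100 CPM in 51 of 1669 cells (3.06%). There the IgAN plates ran from 6.61 CPM in plate 325 through a median of 20.4 to 30.6 CPM in plate 315, and the Control plates were at 7.44, 9.29, 10.2 and 10.4 CPM. Apart from plate 325, the IgAN plates lay above all Control plates. The summed Ddah1 levels of 21.2 CPM (20.6 to 21.7) and 9.31 CPM (8.86 to 9.77) differed by 1.11 on the log2 scale, and without plate 325 Ddah1 met the size rule. Without cluster 4 the Ddah1 difference was 0.77, with plate 316 at 9.16 CPM among the Control plates at 8.81 to 12.2 CPM.

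For Ddah2 the IgAN plates, at 546 to 749 CPM with a median of 588 CPM, overlapped the Control plates, at 588, 662, 679 and 806 CPM. The log2 difference of Ddah2 was -0.12.

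Gucy1a3 (chromosome 3, 82092427 to 82145789, minus strand) was at 742 CPM (734 to 751) in mesangial-like cells and 585 CPM in the smooth muscle or renin cell-like class. It reached 100 CPM in 111 of 151 mesangial-like cells (73.5%) and in 2 of 1669 endothelial-like cells (0.120%). The mesangial plates were at 92.8, 673, 688 and 903 CPM in IgAN and 543, 918 and 1314 CPM in Control. Plate 325 of IgAN was far below the rest, the other plates overlapped, and the log2 difference was -0.46. Its partner subunit Gucy1b3 was at 210 CPM in IgAN and 171 CPM in Control in the same cells, and the cyclic GMP-dependent kinase gene Prkg1 at 106 and 100 CPM. The sender and the responder of nitric oxide signalling, Nos3 and Gucy1a3, thus lay in separate cell classes.

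Klf2 (chromosome 8, 72319033 to 72321656, plus strand) was not specific to endothelium. It was at 1387 CPM in B or plasma cell-like cells, 1339 CPM in endothelial-like cells and 1011 CPM in macrophage or dendritic-like cells, and the plates of these 3 classes overlapped. The smooth muscle or renin cell-like class followed at 900 CPM, neutrophil-like cells at 877 CPM, T or NK cell-like cells at 729 CPM and mesangial-like cells at 450 CPM. Parietal epithelial-like cells were at 206 CPM. There 3 plates, all of IgAN, held at least 10 cells, at 169 to 336 CPM, and the Control cells were at 106 CPM. Podocyte-like cells were at 68.1 CPM, in plates of 11.8 to 143 CPM, and the Control value of parietal epithelial-like cells lay within that range. Klf4 (chromosome 4, 55527143 to 55532466, minus strand) was highest in macrophage or dendritic-like cells, at 297 CPM, and endothelial-like cells, at 266 CPM, with overlapping plates, and B or plasma cell-like cells were next at 70.1 CPM.

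In endothelial-like cells Klf2 ran in IgAN from 373 CPM in plate 322 through a median of 1596 to 2030 CPM in plate 313, and in Control it was at 1012, 1145, 1429 and 1573 CPM. Klf4 ran from 66.6 CPM in plate 322 through a median of 329 to 419 CPM in plate 318, and in Control it was at 206, 259, 282 and 293 CPM. For both genes plate 322 lay far below every other plate of either group. The summed levels were nearly equal, 1338 and 1341 CPM for Klf2 and 264 and 269 CPM for Klf4, at log2 differences of -0.00 and -0.03. Without plate 322 these were 0.37 and 0.36, and neither gene met the size rule.

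Plate 322 also had the lowest level of 17 immediate early genes, which respond to stress and to dissociation: their sum was 6077 CPM in its endothelial-like cells and 16120 to 26350 CPM in the other 9 plates. It was the deepest plate, and 173 of its 203 endothelial-like cells were in cluster 2. Across cells of a plate Klf2 and the immediate early sum went together, with a median Spearman correlation of 0.51 over 10 plates (0.33 to 0.66), and for Klf4 the median was 0.38 (0.12 to 0.52). Klf2 and Klf4 had a median of 0.29 (0.10 to 0.43). Depth differed between the cells of a plate, and the immediate early sum and reads per cell had a median of 0.22. The part of dissociation in the Klf2 and Klf4 levels was not tested. For Edn1 the medians with Klf2, Klf4 and Nos3 were 0.03, 0.09 and 0.07, and that with Ednrb was -0.10.

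**Figure D4:**
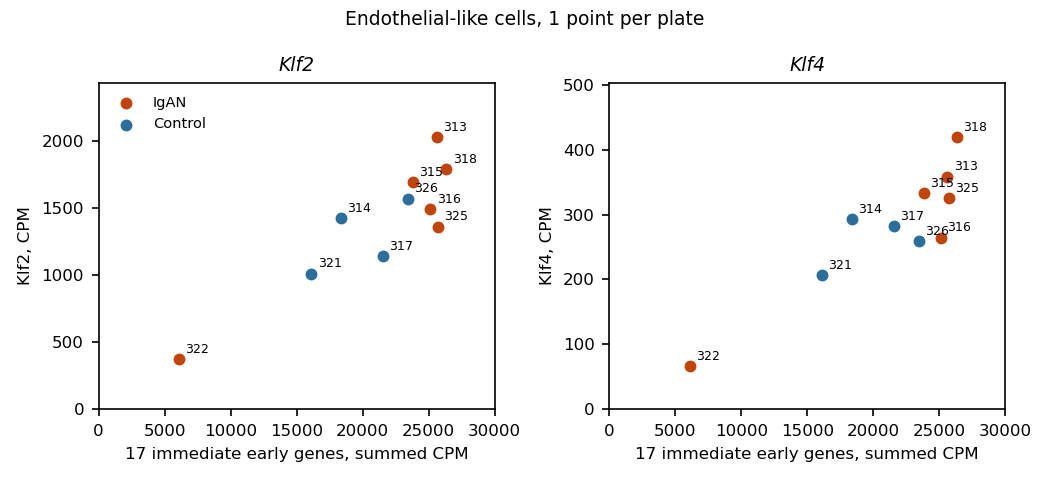
Klf2 (left) and Klf4 (right) in CPM against the summed CPM of 17 immediate early genes in endothelial-like cells, 1 labelled point per plate, linear axes. Plate 322 stands alone at 6077 CPM of immediate early genes, with Klf2 at 373 and Klf4 at 66.6 CPM, and the other 9 plates lie at 16120 CPM or more.

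The 150 bases before the starts of Klf2 (chr8:72318912-72319061, plus strand) and Klf4 (chr4:55532476-55532625, minus strand) are given because these were the members that moved together. Capitals mark in Klf2 a MEF2 site, which binds factors of the flow-activated MEK5 and ERK5 cascade, and then CACCC on the minus strand.
Klf2: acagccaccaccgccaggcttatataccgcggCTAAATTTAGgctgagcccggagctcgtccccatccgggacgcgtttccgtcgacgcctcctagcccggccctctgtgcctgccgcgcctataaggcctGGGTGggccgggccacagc
Klf4: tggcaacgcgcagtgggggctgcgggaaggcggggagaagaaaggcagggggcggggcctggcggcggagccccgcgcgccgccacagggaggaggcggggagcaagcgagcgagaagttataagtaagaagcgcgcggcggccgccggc
The MEF2 site lay 118 to 109 bases before the Klf2 start, and 3.42% of the 27025 genes had one. The CACCC of Klf2 lay 19 to 15 bases before the start. In the 250 bases before Klf4 none of the searched motifs was found. TGANTCA, the AP-1 motif of the Fos and Jun proteins, was found for 7.82% of all genes and for none of the 9, nor was GATAAG, found for 7.60% of genes, or the CArG box of serum response factor, found for 1.62%.

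Between IgAN and Control no member met the size rule in endothelial-like cells, of 8 measured, where 0.761% of 9723 measured genes were higher and 0.699% lower. A gene counted as measured with at least 10 CPM and a read in at least 10% of cells of the class in 1 group. The median log2 difference of the 8 was -0.02, against 0.01 over all measured genes. Without cluster 2 again none of 8 met it, against 0.477% of 9647 genes higher and 0.622% lower. Plates 313 and 316 then gave most of the IgAN cells. The log2 differences without cluster 2 were 0.52 for Edn1, 0.45 for Ednrb, -0.30 for Ece1, 0.03 for Nos3, 0.86 for Ddah1, -0.16 for Ddah2, 0.29 for Klf2 and 0.31 for Klf4. In mesangial-like cells none of 10 members met it, against 2.51% of genes higher and 2.21% lower, and the median was -0.34 against -0.00. The widest gap there was in Ece1, at 7.74 CPM in IgAN and 124 CPM in Control, and it did not separate the plates: 4.07, 4.38, 4.88 and 12.4 CPM against 11.1, 127 and 227 CPM. Klf2 in mesangial-like cells was at 520 and 307 CPM, with overlapping plates of 223 to 849 and 281 to 350 CPM.

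**Figure D5:**
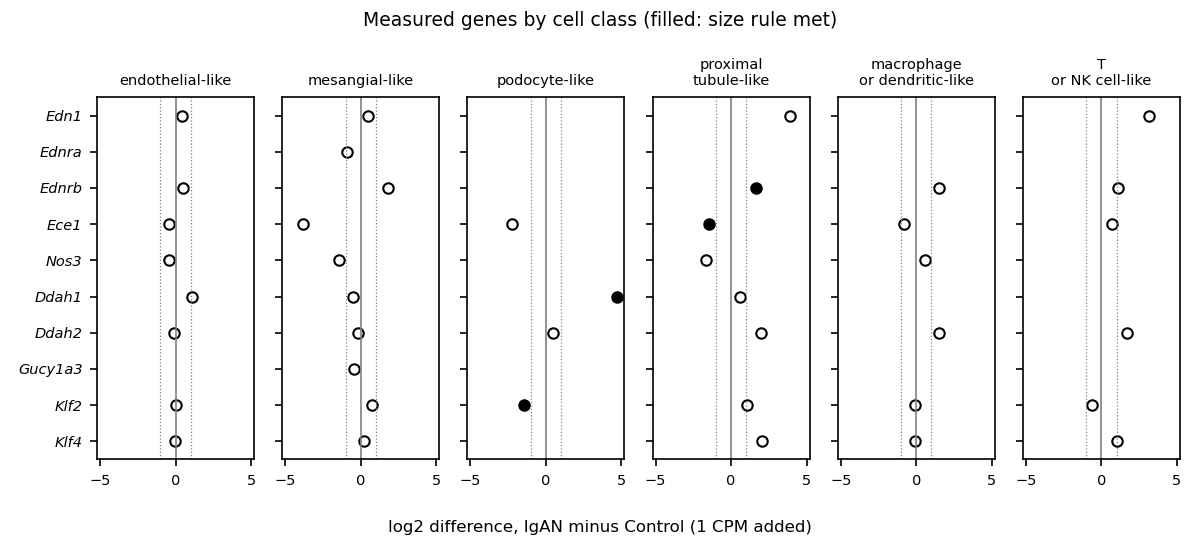
Log2 difference of summed CPM, IgAN minus Control with 1 CPM added (x axis), for each measured gene (y axis) in 6 cell classes; filled points met the size rule, open points did not, and dotted lines mark differences of 1. Filled points are Ddah1 and Klf2 in podocyte-like cells and Ednrb and Ece1 in proximal tubule-like cells.

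In podocyte-like cells 4 members were measured, 1 was higher and 1 lower by the rule, against 3.89% of genes higher and 6.2% lower. Ddah1 was higher in IgAN, at 147 CPM against 4.54 CPM in Control, a log2 difference of 4.74. The 2 IgAN plates with at least 10 cells were at 15.3 and 45.1 CPM and the Control plates at 0.299, 1.36, 3.31 and 11.0 CPM. Most of the IgAN sum came from plates with fewer cells, at 1383 CPM in the 2 cells of plate 325 and 438 CPM in the 3 cells of plate 322, and 10 of all 184 podocyte-like cells reached 100 CPM. Without cells that carried markers of another main class the Ddah1 difference was 2.20 and no longer met the rule. Markers of the smooth muscle or renin cell-like class, where Ddah1 stood at 282 CPM, were also higher in IgAN podocyte-like cells: the 8 markers summed to 285 CPM against 33.7 CPM, in plates of 229 to 309 and 11.7 to 64.9 CPM. The 9 markers of parietal epithelial-like cells, where Ddah1 stood at 83.0 CPM, summed to 548 CPM against 198 CPM, in plates of 582 to 613 and 86.2 to 278 CPM. Of both lists none was at 0. The 8 markers of proximal tubule-like cells, where Ddah1 was highest at 433 CPM, were not higher in IgAN. They summed to 33.5 CPM against 37.2 CPM, in plates of 11.1 to 17.6 and 6.57 to 97.5 CPM. The part of these lists in the Ddah1 value was not tested.

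Klf2 was lower in IgAN podocyte-like cells, at 27.6 CPM against 78.1 CPM, a log2 difference of -1.47. The IgAN plates were at 11.8 and 31.6 CPM and the Control plates at 38.3, 46.7, 57.9 and 143 CPM. Without Control plate 314, the highest, the Klf2 difference was -0.79 and did not meet the rule. The immediate early sum was also lower in these cells, at 4981 CPM in IgAN and 7846 CPM in Control, with plates of 4251 to 4650 and 4657 to 11570 CPM. Of its 16 measured genes 10 were lower and 1, Nr4a1, higher by the rule, and its part in the Klf2 value was not tested.

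In proximal tubule-like cells 8 members were measured, 1 was higher and 1 lower, against 4.17% of genes higher and 2.15% lower. Ednrb was at 15.7 CPM in IgAN and 4.37 CPM in Control, a log2 difference of 1.63, in plates of 9.37, 14.1, 14.2 and 19.6 against 1.66, 6.18 and 7.96 CPM. This Ednrb level was 2.06% of that of IgAN endothelial-like cells. A higher low level of Ednrb in IgAN was not particular to this class. In mesangial-like cells it was at 22.7 and 5.67 CPM in IgAN and Control. In macrophage or dendritic-like cells it was at 16.9 and 5.30 CPM, and in T or NK cell-like cells at 13.0 and 5.44 CPM. The plates of these 3 classes overlapped. Of the named classes, only the smooth muscle or renin cell-like class was lower in IgAN, at 220 and 596 CPM. The summed level of the 10 endothelial markers in proximal tubule-like cells was 925 CPM in IgAN and 202 CPM in Control. These were 5.64% and 1.22% of the endothelial-like level. Its plates overlapped, at 227 to 2712 CPM in IgAN and 144 to 299 CPM in Control, and its part in the Ednrb level was not tested. Of the 2 clusters of the class, cluster 5 held 91 IgAN and 72 Control cells and cluster 17 held 9 and 13. In cluster 5 alone Ednrb was at 16.0 and 4.12 CPM, a log2 difference of 1.73, but the lowest IgAN plate, at 8.80 CPM, lay below the highest Control plate, at 9.54 CPM, and the rule was not met.

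Ece1 was lower in IgAN proximal tubule-like cells, at 46.6 CPM against 129 CPM, a log2 difference of -1.45. The 4 IgAN plates were at 24.2, 30.6, 50.9 and 52.7 CPM, all below the Control plates at 95.4, 155 and 167 CPM. Cluster 17 had the higher level, at 152 CPM in IgAN and 419 CPM in Control. In cluster 5 alone Ece1 was at 37.4 and 69.1 CPM, a log2 difference of -0.87, its plates, at 24.2 to 55.2 and 46.0 to 77.1 CPM, overlapped, and the rule was not met. In podocyte-like cells Ece1 was at 7.19 CPM in IgAN and 38.7 CPM in Control, in macrophage or dendritic-like cells at 96.6 and 168 CPM, and in T or NK cell-like cells at 83.6 and 51.9 CPM, each with overlapping plates. The macrophage or dendritic-like class differed in its clusters between the groups, with 113 IgAN and 47 Control cells in cluster 6 and 40 and 52 in cluster 13. Ece1 there was at 63.3 and 35.5 CPM in cluster 6 and at 150 and 246 CPM in cluster 13. Ddah1, the leading member in the proximal tubule-like class, was at 509 CPM in IgAN and 343 CPM in Control, with overlapping plates.

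No member met the rule in macrophage or dendritic-like cells, where 6 were measured and 0.602% of genes were higher and 0.497% lower, or in T or NK cell-like cells, where 6 were measured and 0.838% were higher and 1.51% lower. In T or NK cell-like cells Klf2, which there keeps cells in a resting, recirculating state, was at 554 CPM in IgAN and 862 CPM in Control, a log2 difference of -0.64. Its plates, at 217 to 911 and 570 to 1364 CPM, overlapped. This class too differed in its clusters: cluster 10, led by the T cell genes Cd3e, Tcf7 and Trac, held 29 IgAN and 83 Control cells, and cluster 11, led by the NK cell genes Ncr1, Gzma and Prf1, held 59 and 45. Klf2 was at 470 and 804 CPM in cluster 10 and at 609 and 968 CPM in cluster 11, in IgAN and Control. In cluster 10 only 1 IgAN plate held at least 10 cells, at 260 CPM, against 579 to 1201 CPM in 4 Control plates. In cluster 11 the Klf2 plates overlapped, at 437 to 1056 CPM in 3 IgAN and 794 to 1580 CPM in 2 Control plates. S1pr1, the receptor for exit from tissue and a known Klf2 target, was lower by the rule in the whole class, at 405 CPM against 991 CPM. By cluster S1pr1 was at 955 and 1499 CPM in cluster 10 and at 53.4 and 49.8 CPM in cluster 11. Ece1 was at 72.5 and 65.8 CPM in cluster 10 and at 90.8 and 26.1 CPM in cluster 11.

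Other genes of the same pathways were counted in endothelial-like cells by the same rule. Of 21 other genes of nitric oxide synthesis and its control 15 were measured and none met the rule, with a median log2 difference of 0.01. Cav1, the caveolar inhibitor of Nos3, was at 606 CPM in IgAN and 527 CPM in Control, and Nostrin, which moves Nos3 away from the cell membrane, at 438 and 260 CPM. The Nostrin plates did not overlap, at 297 to 565 CPM against 231 to 289 CPM, but its log2 difference of 0.75 was below 1. Of all 9723 measured genes, 1.49% likewise had every IgAN plate above every Control plate. The chaperone gene Hsp90aa1 was at 376 and 287 CPM, and Gchfr, a regulator of cofactor synthesis, at 349 and 306 CPM.

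Of 10 other cyclic GMP genes 5 were measured in endothelial-like cells, none met the rule, and the median was -0.28. The phosphodiesterase gene Pde2a was at 644 CPM in IgAN and 784 CPM in Control, the natriuretic peptide receptor gene Npr1 at 127 and 217 CPM, Vasp at 93.1 and 124 CPM and Ppp1r12a at 45.1 and 43.8 CPM. The remaining endothelin genes were nearly silent there, and Ece2 alone of 5 was measured, at 19.3 and 16.5 CPM.

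All 15 genes upstream in shear sensing were measured in endothelial-like cells and none met the rule, with a median of 0.13. Heg1, a membrane partner of the CCM complex, was at 1431 and 1497 CPM in IgAN and Control, Klf6 at 351 and 255 CPM, Mef2a at 259 and 238 CPM and the plexin gene Plxnd1 at 197 and 232 CPM. Of 12 genes that flow induces 9 were measured and none met it, with a median of -0.03. Thbd, which encodes thrombomodulin and is a known target of Klf2 and Klf4, was at 386 CPM in IgAN and 632 CPM in Control, in plates of 310 to 537 and 529 to 706 CPM. Kdr was at 1428 and 1463 CPM, S1pr1 at 1100 and 930 CPM and Tek at 711 and 833 CPM, the last in plates that did not overlap. Of all 9723 measured genes, 2.22% had every IgAN plate below every Control plate.

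Among endothelial activation genes, which Klf2 is known to restrain, 5 of 7 were measured and 1, Icam1, was higher by the rule, with a median of 1.15. Icam1 was at 339 CPM in IgAN plates of 271 to 462 CPM and at 143 CPM in Control plates of 103 to 191 CPM. Sele was at 176 and 78.9 CPM, Cxcl1 at 174 and 79.1 CPM and Nfkbia at 1023 and 844 CPM, with overlapping plates. All 17 immediate early genes were measured and none met it, with a median of -0.05. The most abundant were Fos, at 3493 and 3810 CPM, Dusp1, at 2773 and 3105 CPM, Zfp36, at 1703 and 1748 CPM, and Junb, at 1587 and 1829 CPM.

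The genes whose levels over 11 classes were most like those of a member are given by Pearson's r of log2(CPM + 1), as a description over classes that share their plates. They were picked from 15268 genes, and the 100th closest gene still had an r of 0.735 to 0.878, depending on the member. Edn1 was closest to Clec14a (0.94), Gm37524 (0.93) and Tek (0.92), Nos3 to Ripply3 (0.97), AU021092 (0.96) and Cd300lg (0.96), and Ednrb to Fam181b (0.96), Apold1 (0.96) and Efr3b (0.95). Ednra was closest to the smooth muscle actin gene Acta2 (0.98), 4933431K23Rik (0.97) and Col3a1 (0.95), and Gucy1a3 to Prrt2 (0.99), Ntrk2 (0.98) and the angiotensin receptor gene Agtr1a (0.98). Ddah1 was closest to Sardh (0.98), Gpc4 (0.97) and Chpt1 (0.97), and Ddah2 to Hspg2 (0.95), Caskin2 (0.94) and Cav2 (0.92). Klf2 was closest to Fli1 (0.94), Eif1 (0.93) and Sp100 (0.93), Klf4 to Pltp (0.92), Scarb1 (0.91) and Ggta1 (0.90), and Ece1 to Chrm3 (0.90), Serpina1b (0.90) and Gm9917 (0.88).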

How the data were processed

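Single cells were measured by Smart-seq2 on 10 plates, and each cell is 1 sample in the labels. The table deposited by the authors holds counts, that is whole reads per gene name and cell, not normalized. For its making, featureCounts, Subread 1.4.6-p5, TopHat2 2.1.1 and SAMtools 0.1.18 are named, per the submitters' processing notes, with genome build GRCm38 (mm10). Gene annotation, strand use, duplicate handling and cell removal: not given in the sources used here. Reads on the other strand of a member can therefore not be told apart from its own.

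All 3143 cells matched a label, 0 sample columns were left without a match, and all passed a minimum of 10000 reads and 500 genes. Counts were scaled to 100000 reads per cell and log transformed. Clusters were made with Leiden at resolution 1 on 15 neighbours, 30 principal components and 2000 variable genes, from which 97 genes of the members and pathway lists were kept out. A cluster was named when at least 3 markers of a class were found in 25% of its cells, unless the markers found among its first 10 genes by fold belonged mainly to some other listed class. No platelet list was used, so cluster 2, led by platelet genes, kept the endothelial name. Classes whose clusters differed between the groups were compared whole. Values of members, and of S1pr1 in T or NK cell-like cells, are given by cluster or without a cluster beside them. Endothelial-like IgAN cells lay mostly in clusters 0 and 2 and Control cells in cluster 1. No doublet caller was run, and cells with 3 or more markers of another main class at 50 CPM were left out as an alternative.

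The log2 difference is IgAN minus Control of summed CPM with 1 CPM added. Measured genes had 10 CPM and a read in 10% of cells of a class in 1 group. The size rule asked for a log2 difference of 1 and plates, of at least 10 cells each, that did not overlap, and it was tested on simulated data. Intervals are Poisson for sums of reads and Clopper-Pearson for shares, at 95%. All 10 members were named, with the list genes that met the rule and the 4 most abundant of each list in endothelial-like cells; list genes of other classes are named only beside a member. Members and lists were chosen with earlier results of these data known. Positions are GRCm38 coordinates of GENCODE vM21, and promoters are from RefSeq on GRCm38.p6. Alternatives changed the scaling, averaging, filters, pseudocount, fold limit, clustering, cells of 2 classes and single plates. The software was leidenalg 0.10.2, igraph 0.11.9, scipy 1.17.1, pandas 2.3.3, numpy 2.4.6 and matplotlib 3.10.9 under Python 3.11.15.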

Additional observations from a re-analysis of the deposited data

Results flagged for a closer look

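Among 62 groups of 4 to 10 plates of the compared classes, 11 had a highest or lowest plate that stood far from the others. A chance rate of about 1 in 20 groups would hold for normal and independent values only. The groups here share plates, so the count is not compared with chance.

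In Control endothelial-like cells Nos3 was at 309 CPM in plate 314, and at 242 to 246 CPM in the other 3 plates. In IgAN mesangial-like cells plate 325 stood high for Ednrb, at 134 CPM against 7.09 to 13.8 CPM, for Nos3, at 19.1 CPM against 1.53 to 4.20 CPM, and for Klf4, at 149 CPM against 19.2 to 30.6 CPM. Plate 318 stood high for Ece1 there, at 12.4 CPM against 4.07 to 4.88 CPM.

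In IgAN proximal tubule-like cells plate 325 stood high for Edn1, at 148 CPM against 1.38 to 12.2 CPM, and for Ddah2, at 313 CPM against 18.5 to 32.7 CPM. Plate 318 stood high for Nos3, at 7.89 CPM against 2.42 to 3.03 CPM. Plate 315 stood high in IgAN macrophage or dendritic-like cells for Ednrb, at 43.0 CPM against 5.30 to 14.1 CPM. It stood high in IgAN T or NK cell-like cells for Edn1, at 33.5 CPM against 0.499 to 6.54 CPM, and for Ddah2, at 87.2 CPM against 3.49 to 25.3 CPM.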

How the results depend on the processing

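No paired analysis was possible because the labels name no animals, each plate held 1 group, and the numbers in the labels only name cells. Among the alternative counts of members past the size rule, run for endothelial-, mesangial-, podocyte- and, as added after seeing the data and without new clustering, proximal tubule-like cells, 158 were the same as the main count and 22 differed, and no called member of these classes changed sign. In endothelial-like cells the count of higher members was 0 and became 1 without cluster 4 (Edn1), with cluster 9 added (Ddah1) and without IgAN plate 325 (Ddah1), a range of 0 to 1 over single plates left out. The changes to clusters were chosen after seeing the data. In mesangial-like cells the higher count of 0 became 1 (Ednrb) with the mean of per-cell CPM, with equal weight for plates and without IgAN plate 313 or Control plate 326, and the lower count of 0 became 1 without Control plate 314 (Ednra), IgAN plate 318 or Control plate 326 (both Ece1). In podocyte-like cells the higher count of 1 (Ddah1) became 0 without cells of 2 classes. The lower count of 1 (Klf2) became 0 with the mean of per-cell CPM, equal weight for plates, cells of 100000 reads and 1000 genes, 1000 variable genes, or without Control plate 314, and 2 (Ece1 and Klf2) without Control plate 321. In proximal tubule-like cells the higher count of 1 (Ednrb) became 0 with a 50 CPM filter and ran from 1 to 4 over single plates left out (4 without IgAN plate 316, 2 without Control plate 317 or 321). The lower count of 1 (Ece1) became 0 without cluster 17, where Edn1 alone was higher. Other classes were compared under the main settings only. With a plate left out fewer plates must lie apart. Mesangial-like cells could not be compared without cells of 2 classes, since 3 cells remained. Levels near 1 CPM, such as Ednra in podocyte-like cells at 6 reads, are limited by depth.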

Other observations

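Cluster 9 held 115 IgAN cells and 1 Control cell, of which 61 came from plate 315 and 51 from plate 325. Its 10 leading genes were mixed: Lcn2, an iron carrier protein gene of neutrophils and injured tubule, the interferon-induced chemokine gene Cxcl10, the mitotic genes Ckap2, Knstrn, Ect2 and Bub1b, the tubule genes Kap and Umod, Spp1 and Scn7a. It stayed unnamed because a distal tubule marker, and no marker of its best class, was among them. Its summed endothelial markers stood at 66.7% of the endothelial-like level. In its IgAN cells Klf2 was at 1324 CPM, Ddah2 at 582 CPM, Ednrb at 481 CPM, Ece1 at 284 CPM and Klf4 at 271 CPM. Edn1 was at 175 CPM, with a read in 73.9% of cells (64.9 to 81.7), and Nos3 at 68.0 CPM. These cells entered no comparison except where cluster 9 was added to the endothelial-like cells.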
